A study of Mus musculus with 5 samples.

Results

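Tumor cluster 4 is the group of cells that the authors' graph-based clustering numbered 4 in the table of pancreatic tumor cells. It held 389 of the 2467 tumor cells, and all 389 came from 1 of the 3 tumor libraries, called library C here. Removal of 4 called doublets left 385 cells, or 35.5% of the 1084 kept cells of library C (95% exact binomial interval 32.7 to 38.4). In libraries A and B 0 of 495 and 0 of 846 kept cells carried the number 4, which allows shares of up to 0.606% and 0.355%. The authors' class column placed 388 of the 389 cells in Tumor 2 and 1 in Tumor 3.

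All groups used here came from mice homozygous for a knockout of Gcgr, the glucagon receptor gene, with no treatment. The 3 tumor libraries were made from dissociated tumors and the islet library from dissociated pancreatic islets, each by 10x Chromium 3' single-cell RNA sequencing. Cluster 4 was set against the other 699 kept cells of library C (697 of cluster 2 and 2 of cluster 3, called cluster 2 below), the 844 cells of cluster 1 in library B, the 493 cells of cluster 3 in library A, and 1525 kept cells that the authors typed as alpha in the homozygous islet library. The letters A, B and C order the tumor libraries by their number of cells, fewest first. The labels do not say which numbered tumor sample each one is. They also give no age or sex, and a heterozygous islet library was not analysed here. The question is whether the cluster 4 cells were tumor cells or hyperplastic alpha cells from beside the tumor. Each profile is 1 library, so no test between them is possible, and every interval covers counting error only.

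Alpha cells are the endocrine cells of the islet that make glucagon from the Gcg transcript. Without the glucagon receptor the liver takes up and breaks down fewer amino acids, blood amino acids rise, and alpha cells multiply, with tumors in old animals. An alpha cell is known by Gcg and transthyretin (Ttr) and by transcription factors such as Irx1 and Irx2.

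A level, written CPM, is a gene's share of all UMIs (unique molecular identifiers, 1 for each captured transcript) summed over a profile's cells, times 1000000. Cluster 4 held 8230780 UMIs with a median of 21029 per cell, cluster 2 13539200 with 18838, cluster 1 22581900 with 26120.5, cluster 3 10036900 with 19771, and homozygous alpha cells 22159800 with 14086. A count of 0 allows up to 0.364 CPM in cluster 4 and 0.135 CPM in homozygous alpha cells. Median mitochondrial shares were 1.83% in cluster 4, 2.28% in cluster 2, 1.24% in cluster 1, 1.32% in cluster 3 and 0.593% in homozygous alpha cells. No cell name was shared between libraries. No UMI of Gcgr was found in cluster 4 or in homozygous alpha cells, and cluster 2 held it at 0.222 CPM.

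The libraries differed in sex-linked transcripts, which were looked at after other values had been seen. Xist, the RNA that silences an X chromosome in female cells, stood at 0.121 CPM in cluster 4, 0.369 in cluster 2, 1729 in cluster 1, 1464 in cluster 3 and 0.135 in homozygous alpha cells. The Y-linked gene Ddx3y stood at 63.9 CPM in cluster 4, 71.1 in cluster 2, 0.399 in cluster 1, 0.399 in cluster 3 and 37.2 in homozygous alpha cells. Cluster 4 thus carried the same sex-linked transcripts as cluster 2 and the islet library. Differences of cluster 4 from clusters 1 and 3 cannot be told apart from differences between their libraries.

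The cluster 4 cells held the transcripts of alpha cells. Gcg stood at 322917 CPM in cluster 4, 306119 in cluster 2, 284107 in cluster 1, 364465 in cluster 3 and 326369 in homozygous alpha cells. Every cluster 4 cell had at least 143284 CPM of Gcg, and the median cell had 322628. Irx1, an alpha cell transcription factor gene, was at 87.8 CPM in cluster 4, 138 in cluster 2, 220 in cluster 1, 123 in cluster 3 and 120 in homozygous alpha cells, and so was lowest in cluster 4, at 0.40 times the level of cluster 1. The related Irx2 was at 134 CPM in cluster 4, 150 in cluster 2, 174 in cluster 1, 98.5 in cluster 3 and 85.5 in homozygous alpha cells. Of 10 alpha markers among the genes compared, 0 differed by 2-fold between cluster 4 and cluster 2. Of all genes 2.32% were higher and 3.75% lower there. Against homozygous alpha cells 3 of the 10 were higher by 2-fold and 0 lower, beside 12.5% and 1.74% of all genes. The 3 were the vitamin D binding protein gene Gc, the arginine transporter gene Slc7a2 and the anchoring protein gene Sphkap. TMM scaling gave 2 higher and 1 lower. Ttr stood at 121641 CPM in cluster 4, 74690 in cluster 2, 116286 in cluster 1, 54872 in cluster 3 and 63830 in homozygous alpha cells. UMIs of all 12 alpha markers but Loxl4 were found in cluster 4, and Loxl4 had none in homozygous alpha cells either.

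The 5 genes given as markers of cluster 4 are Cd2, Dapl1, Ccl5, Agt and Egr4. The clusters were made from these genes, so their levels describe the cluster and support nothing. Cd2, which encodes an adhesion receptor known from T cells (chromosome 3, 101275908 to 101287939 in GRCm38), stood at 181 CPM in cluster 4 (172 to 190), 51.4 in cluster 2, 71.3 in cluster 1, 65.2 in cluster 3 and 28.5 in homozygous alpha cells. The level in cluster 4 was 3.52 times that in cluster 2 (3.22 to 3.86) and 6.36 times that in homozygous alpha cells (5.79 to 6.99). With each cell thinned to 5000 UMIs, a Cd2 UMI was seen in 53.3% of cluster 4 cells, 20.5% of cluster 2, 28.1% of cluster 1, 27.3% of cluster 3 and 10.8% of homozygous alpha cells, against 0.708% of homozygous islet beta cells. Without thinning those shares were 90.9%, 54.1%, 78.3%, 63.9% and 26.3%, against 1.52% of beta cells, whose median was 10854 UMIs. Its 5 richest cells held 5.50% of the Cd2 UMIs of cluster 4, so Cd2 was spread over the cluster. The T cell receptor subunit genes Cd3e and Cd3d stood at 4.01 and 5.83 CPM in cluster 4, at 1.99 each in cluster 2, and had no UMI in homozygous alpha cells.

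Agt, which encodes angiotensinogen, the precursor of angiotensin, showed the largest ratio of the 5 to cluster 2. Its level was 361 CPM in cluster 4, 92.5 in cluster 2, 44.9 in cluster 1, 104 in cluster 3 and 43.9 in homozygous alpha cells. Cluster 4 stood 3.91-fold above cluster 2 (3.65 to 4.18), 8.05-fold above cluster 1, 3.47-fold above cluster 3 and 8.23-fold above homozygous alpha cells. An Agt UMI was found after thinning in 73.2% of cluster 4 cells, 31.7% of cluster 2, 18.3% of cluster 1, 33.8% of cluster 3 and 15.5% of homozygous alpha cells, against 2.59% of beta cells. Egr4, an immediate early transcription factor gene, stood at 93.2 CPM in cluster 4, 31.6 in cluster 2, 55.4 in cluster 1 and 16.8 in cluster 3. In homozygous alpha cells 1 UMI of Egr4 was found (0.0451 CPM), and the ratio of cluster 4 to it was 2065 with an interval of 370 to 81668. After thinning 24.4% of cluster 4 cells had an Egr4 UMI, 10.6% of cluster 2, 17.5% of cluster 1, 5.87% of cluster 3 and 0 of 1427 homozygous alpha cells, which allows up to 0.210%.

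Dapl1, a gene that alpha cells hold at high levels here, stood at 4277 CPM in cluster 4, 2409 in cluster 2, 1369 in cluster 1, 812 in cluster 3 and 1248 in homozygous alpha cells. Its ratio of cluster 4 to cluster 2 was 1.78 (1.75 to 1.8) and did not reach 2-fold. Within the homozygous islet, Dapl1 stood at 1738 CPM in the authors' alpha cluster 2.1 and 376.9 in cluster 2.2, and cluster 4 was above both. Ccl5 encodes a chemokine that draws T cells, and it went with the library more than with the cluster. Its level was 169 CPM in cluster 4, 105 in cluster 2, 5.27 in cluster 1, 9.37 in cluster 3 and 1.31 in homozygous alpha cells. In cluster 4 5 cells held 51.1% of all Ccl5 UMIs, and without them the level was 82.6 CPM. After thinning 17.3% of cluster 4 cells and 16.6% of cluster 2 cells had a Ccl5 UMI, against 1.31% of cluster 1, 2.94% of cluster 3 and 0.420% of homozygous alpha cells.

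**Figure D1:**
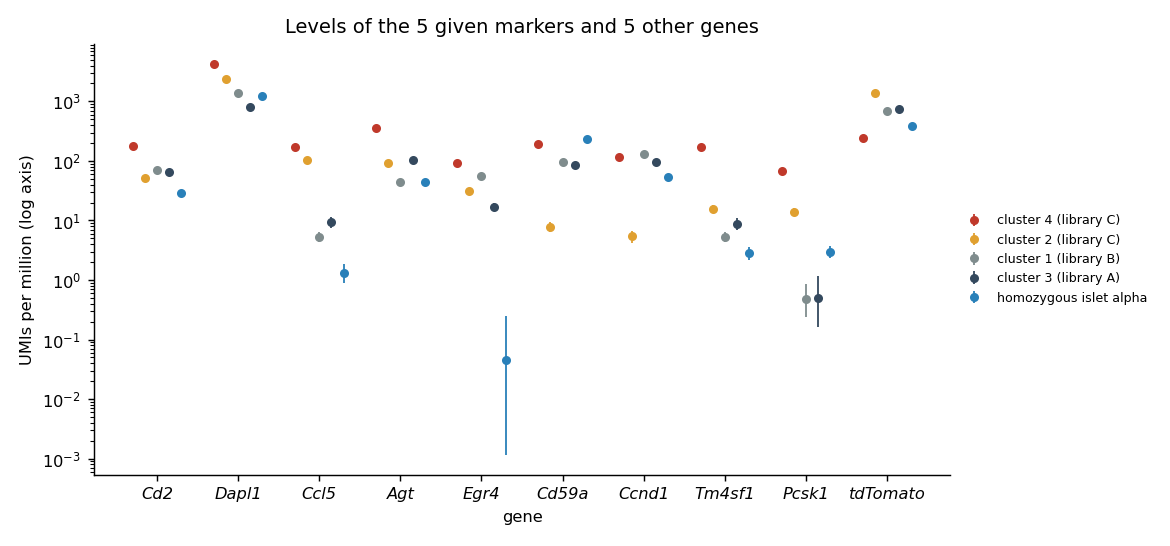
Level of the 5 given markers and of 5 other genes in CPM (log axis) in cluster 4, cluster 2, cluster 1, cluster 3 and homozygous islet alpha cells, with exact 95% Poisson intervals as bars. Cd2, Agt, Tm4sf1 and Pcsk1 are highest in cluster 4, while Cd59a and Ccnd1 are low in cluster 2 alone.

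Cluster 4 was next set against cluster 2, the 1 comparison within a library. Across 10110 genes with 5 CPM or more in at least 2 profiles, 235 were higher in cluster 4 by 2-fold (2.32% of genes) and 379 were lower (3.75%), on the scale of log2(mean CPM + 1). The median of all genes was -0.13 on that scale. Hormone transcripts took 45.6% of the UMIs of cluster 4 and 38.3% of those of cluster 2, and the split moved with scaling. TMM scaling shifted the median by 0.13 and gave 314 higher and 295 lower, and totals without hormones gave 465 higher and 435 lower.

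Among genes with 50 CPM or more in cluster 4 or cluster 2, the 15 lowest in cluster 4 relative to cluster 2 all lay on chromosome 10. Cd24a, which encodes a small surface glycoprotein (chromosome 10, 43579169 to 43584265), stood at 107 CPM in cluster 4, 3608 in cluster 2, 61.4 in cluster 1, 5.78 in cluster 3 and 14.6 in homozygous alpha cells. Mdm2, which encodes the ubiquitin ligase that degrades p53 (chromosome 10, 117688875 to 117710758), was at 168 CPM in cluster 4 (159 to 177), 2449 in cluster 2 (2423 to 2476), 44.9 in cluster 1, 49.4 in cluster 3 and 25.5 in homozygous alpha cells. Cdk4, the kinase that pairs with D cyclins in G1 (chromosome 10, 127063535 to 127067288), was at 212 CPM in cluster 4, 2763 in cluster 2, 152 in cluster 1, 90.1 in cluster 3 and 87.5 in homozygous alpha cells. The high values sat in cluster 2 alone, and cluster 4 lay much nearer to the other 3 profiles. The UMIs of Cdk4 are counted in a second row of the table as well, so its level is uncertain to that degree.

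The splicing factor gene Sf3a2 and the proliferation-associated Pa2g4 followed the same order, with 105 and 109 CPM in cluster 4 against 3245 and 3048 in cluster 2. Across the 15 genes the level in cluster 4 was 2.97% (Cd24a) to 9.09% (Lss, lanosterol synthase) of that in cluster 2. The ratios of the same 15 in cluster 4 to homozygous alpha cells ran from 1.19 (Mettl1, a tRNA methyltransferase gene) to 8.47 (Lss). Mdm2 was at 6.56 and Cdk4 at 2.42. The median log2 ratio of all genes in that comparison was 0.36. The interval of March9, among the 15 with a ratio of 1.21, was 0.954 to 1.53, so not every gene was raised. In cluster 2 the folds over homozygous alpha cells were 95.9 for Mdm2, 31.6 for Cdk4 and 247 for Cd24a. Clusters 4 and 2 came from 1 library, and the part of free RNA in the levels of these genes in cluster 4 was not tested.

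Of the genes 8-fold lower in cluster 4 than in cluster 2, 23 of 31 with a known position (74.2%) lay on chromosome 10, which held 4.92% of all genes compared. Among genes 2-fold lower the count was 49 of 364 (13.5%), and among genes 2-fold higher it was 8 of 229 (3.49%). The difference was patchy along the chromosome. Of 278 chromosome 10 genes with 20 CPM or more, 38 were 2-fold lower and 5 higher, beside 3.75% and 2.32% of all genes compared. Their median was -0.02 relative to the median of all chromosomes. A list of genes from distal chromosome 10 around Mdm2 and Cdk4 was taken up because earlier results of these data were known. Of its 17 genes compared 8 were lower and 0 higher, against the same shares of all genes. With TMM scaling 8 were lower and 1 higher. Cd24a and other genes of the 15 lie far outside the stretch around Mdm2 and Cdk4.

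**Figure D2:**
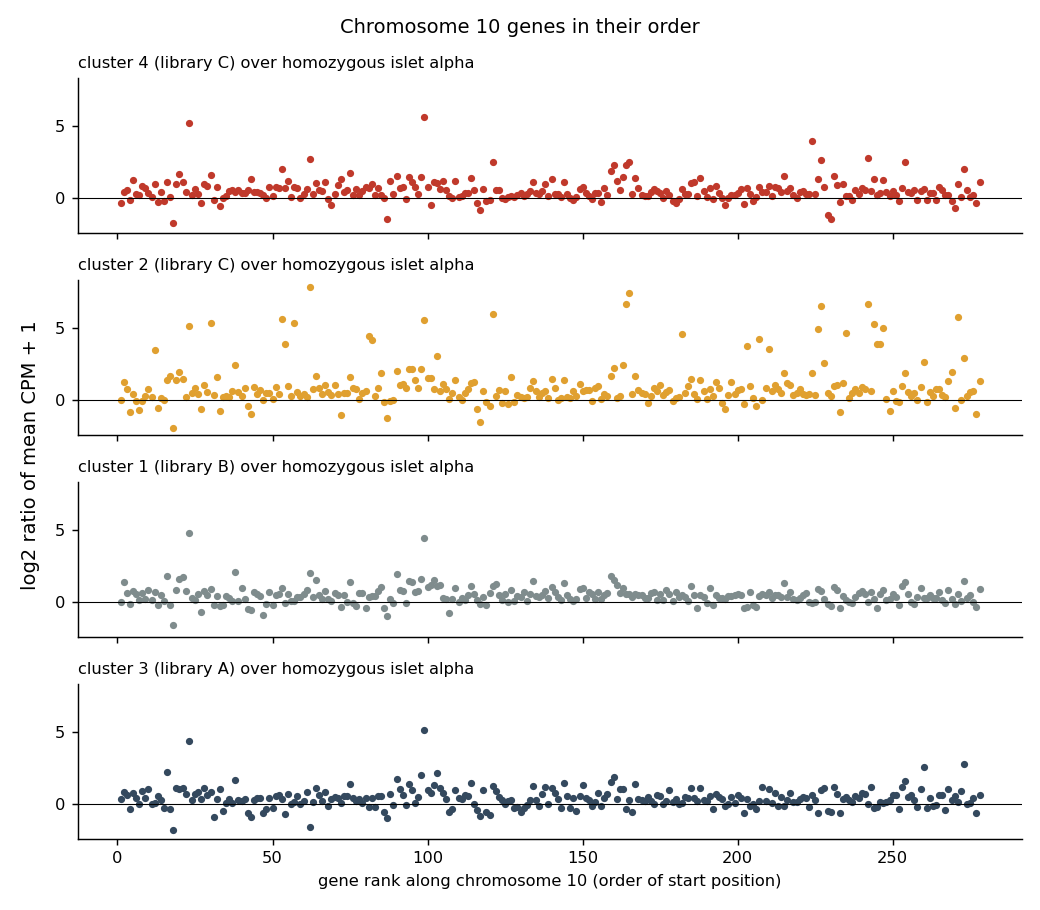
Log2 ratio of mean CPM (+1) to homozygous islet alpha cells for each chromosome 10 gene with enough UMIs, in order of start position (rank along the chromosome), in cluster 4, cluster 2, cluster 1 and cluster 3 from top to bottom. Scattered genes stand far above 0 in cluster 2. Over genes with 20 CPM or more in cluster 4 or homozygous alpha cells the median is 0.39 in cluster 4. Relative to the median of all genes with 20 CPM or more it is 0.005, and Mdm2 is among the genes that stand higher.

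Cell by cell, cluster 4 and cluster 2 formed largely separate ranges on that list. The clusters were made from these genes, and the list was taken up with earlier results known. The separation thus describes the clusters and supports nothing. The 24 listed genes found in the table summed to a median of 1090 CPM per cell in cluster 4 (lowest 459, highest 2826) and 6785 in cluster 2 (lowest 914, highest 46982). The medians of clusters 1 and 3 were 946 and 843 CPM, and that of homozygous alpha cells was 746. The 5th percentile of cluster 2 (2606 CPM) was reached by 4 of 385 cluster 4 cells and 0 of the 1337 cells of clusters 1 and 3. In cluster 2, 44 of 699 cells lay below the highest cluster 4 cell. Over all of chromosome 10, the median cell held 23390 CPM in cluster 4, 53029 in cluster 2, 24470 in cluster 1, 23411 in cluster 3 and 18527 in homozygous alpha cells.

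**Figure D3:**
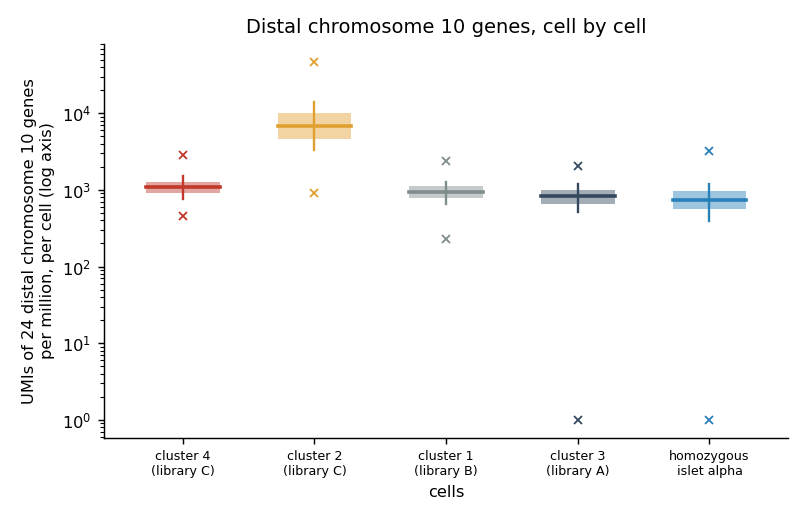
Summed CPM of 24 distal chromosome 10 genes in each cell (log axis) for cluster 4, cluster 2, cluster 1, cluster 3 and homozygous islet alpha cells. Lines are medians, boxes the 25th to 75th percentiles, bars the 10th to 90th percentiles and crosses the lowest and highest cell, with 0 drawn at 1. Cluster 2 has a median of 6785, against 1090 in cluster 4.

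On the other chromosomes the largest shifts between the clusters were on 16 and 18. Relative to the median of all chromosomes, chromosome 16 genes (202 genes) had a median log2 ratio of -0.34 between cluster 4 and cluster 2, and chromosome 18 genes (164 genes) had 0.27. Against homozygous alpha cells the chromosome 16 median was 0.04 in cluster 4 and 0.47 in cluster 2, and the chromosome 18 median was 0.09 in cluster 4 and -0.13 in cluster 2. Over all chromosomes the medians of cluster 4 relative to homozygous alpha cells ran between -0.13 (chromosome 17) and 0.11 (chromosome 1). Those of cluster 1 ran between -0.07 (chromosome 6) and 0.07 (chromosome 16), and those of cluster 3 between -0.11 (chromosome 19) and 0.14 (chromosome 18). On this measure no chromosome of clusters 4, 1 or 3 stood as far from homozygous alpha cells as chromosome 16 of cluster 2. These medians thus did not set cluster 4 apart from tumor clusters 1 and 3, but a median can miss part of a chromosome. Compared directly with cluster 3, 34 of 163 chromosome 18 genes were 2-fold higher in cluster 4 and 1 lower (3.83% and 4.51% of all genes). Compared with cluster 1, 26 of 239 chromosome 3 genes were higher and 5 lower (4.3% and 2.82% of all genes). These were the largest counts of higher genes on any chromosome, and they cannot be told apart from differences between libraries. Gene copy number itself was not measured.

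Among the 15 genes highest in cluster 4 relative to cluster 2, several were low in cluster 2 only. Cd59a, a surface inhibitor of complement, stood at 191 CPM in cluster 4, 7.76 in cluster 2, 95.6 in cluster 1, 85.1 in cluster 3 and 236 in homozygous alpha cells. The D-type cyclin gene Ccnd1, the partner of Cdk4, was at 114 CPM in cluster 4, 5.39 in cluster 2, 128 in cluster 1, 95 in cluster 3 and 53.9 in homozygous alpha cells. Cluster 4 exceeded cluster 2 by 24.6-fold for Cd59a (20.2 to 30.3) and by 21.2-fold for Ccnd1 (16.7 to 27.3). The same order held for the secreted phospholipase gene Pla2g2f, with 59.9 CPM in cluster 4, 1.85 in cluster 2, 98.7 in cluster 1, 83.4 in cluster 3 and 21.2 in homozygous alpha cells, and for the imprinted non-coding RNA Kcnq1ot1, with 145, 6.06, 194, 182 and 70.2 CPM in that order of profiles. After thinning, Ccnd1 had a UMI in 43.6% of cluster 4 cells and 2.33% of cluster 2 cells, against 42.6% in cluster 1, 34.8% in cluster 3 and 21.1% in homozygous alpha cells.

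Others of the 15 were highest in cluster 4 among all 5 profiles. Tm4sf1, which encodes a small membrane protein known from endothelial and tumor cells (chromosome 3, 57285611 to 57387736), was at 172 CPM in cluster 4, 15.9 in cluster 2, 5.31 in cluster 1, 8.77 in cluster 3 and 2.84 in homozygous alpha cells. A UMI of it was found after thinning in 50.9% of cluster 4 cells and 5.68% of cluster 2 cells. The islet endothelial cells held Tm4sf1 at 1198 CPM, while the summed level of 7 endothelial markers was 36.8 CPM in cluster 4 and 49.3 in cluster 2. The calmodulin-binding peptide gene Pcp4 stood at 51.6 CPM in cluster 4 and 7.39 in cluster 2, and was at most 5.00 in the other 3 profiles. The granule protein gene Podxl2 had 60.7 CPM in cluster 4, 12.3 in cluster 2, 5.54 in cluster 1, 8.87 in cluster 3 and 26.5 in homozygous alpha cells.

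Over all genes, 37 were 2-fold higher in cluster 4 than in each of the other 4 profiles (0.366% of genes) and 21 were 2-fold lower (0.208%). These were ranked after their values were seen. Behind Tm4sf1, Pcp4 and Pcsk1 came Lyz2 and Wfdc17, genes of macrophages, and the lysosomal protease gene Ctsh. Lyz2 stood at 34.3 CPM in cluster 4, 7.39 in cluster 2, 1.06 in cluster 1, 2.39 in cluster 3 and 1.44 in homozygous alpha cells, and 5 cells held 58.5% of its UMIs in cluster 4. Wfdc17, whose UMIs fall in 2 rows of the table, stood at 81.6 CPM in cluster 4 and 17.9 in cluster 2, and 5 cells held 75.7% of its UMIs in cluster 4, without which the level was 19.8 CPM. Lgals3, the gene of galectin 3, was at 52.0 CPM in cluster 4, with 68.5% of its UMIs in 5 cells. The trefoil peptide gene Tff3 was spread more widely, with 28.1 CPM in cluster 4, 7.61 in cluster 2, 2.57 in cluster 1, 2.09 in cluster 3 and 0.496 in homozygous alpha cells, and 12.6% of its UMIs in 5 cells of cluster 4.

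The genes 2-fold below all other profiles were led by Cidea, a lipid droplet protein gene, with 5.83 CPM in cluster 4, 32.9 in cluster 2, 33.9 in cluster 1, 34.7 in cluster 3 and 46.7 in homozygous alpha cells. Grb10, an imprinted gene for an adaptor that dampens insulin receptor signaling, stood at 7.90 CPM in cluster 4, 87.2 in cluster 2, 36.7 in cluster 1, 120 in cluster 3 and 60.0 in homozygous alpha cells. Peg10, an imprinted gene of retrotransposon origin, stood at 17.7 CPM in cluster 4, 163 in cluster 2, 218 in cluster 1, 97.8 in cluster 3 and 65.0 in homozygous alpha cells. The tight junction gene Cldn4 was at 18.3 CPM in cluster 4, 80.8 in cluster 2, 62.3 in cluster 1, 137 in cluster 3 and 62.7 in homozygous alpha cells. In the list of 13 imprinted genes 2 were higher and 3 lower in cluster 4 than in cluster 2, against 2.32% and 3.75% of all genes. The low members were thus not the whole list.

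Some genes of the islet cell program were also low in cluster 4. Pax6, a transcription factor gene needed for islet hormone expression, stood at 63.7 CPM in cluster 4, 216 in cluster 2, 170 in cluster 1, 185 in cluster 3 and 108 in homozygous alpha cells. Slc30a8, which loads zinc into hormone granules, stood at 106 CPM in cluster 4, 396 in cluster 2, 485 in cluster 1, 460 in cluster 3 and 221 in homozygous alpha cells. Of 15 islet transcription factors 0 were higher and 2 lower in cluster 4 than in cluster 2 (Pax6 and Nkx6-1), and of 21 granule genes 1 was higher (Pcsk1) and 2 lower, or 1 and 1 with TMM scaling, against 2.32% higher and 3.75% lower of all genes. The other granule genes were near the level of cluster 2, with a list median of 0.11 on the log2 scale. The secretin gene Sct was at 31.7 CPM in cluster 4, 219 in cluster 2, 85.9 in cluster 1, 98.1 in cluster 3 and 50.7 in homozygous alpha cells.

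Transcripts of the cell division cycle were lower in cluster 4 than in cluster 2. Of 18 cell cycle genes compared 15 were 2-fold lower and 0 higher, against 3.75% and 2.32% of all genes. Their median log2 ratio was -2.04, beside -0.13 over all genes, and with TMM scaling 13 of 17 were lower. Top2a, the topoisomerase of dividing cells, stood at 4.13 CPM in cluster 4, 39.7 in cluster 2, 10.2 in cluster 1, 12.6 in cluster 3 and 1.99 in homozygous alpha cells. Ube2c, the ubiquitin-conjugating enzyme of mitotic exit, had 5.59 CPM in cluster 4, 42.7 in cluster 2, 14.3 in cluster 1, 12.5 in cluster 3 and 3.93 in homozygous alpha cells. Cluster 4 lay below every tumor profile for both genes, but not for all of the list. Cenpf, a kinetochore gene of mitosis, stood at 49.9 CPM in cluster 4, 30.6 in cluster 2, 9.70 in cluster 1, 7.97 in cluster 3 and 1.58 in homozygous alpha cells, and was highest in cluster 4. Pcna, the clamp of DNA replication, was at 7.17 CPM in cluster 4, 11.9 in cluster 2, 7.93 in cluster 1, 10.5 in cluster 3 and 5.91 in homozygous alpha cells. Of the 18 genes 9 were lower and 1 higher than in cluster 1, and 11 lower and 1 higher than in cluster 3, against 2.82% lower and 4.3% higher of all genes for cluster 1 and 4.51% and 3.83% for cluster 3. Against homozygous alpha cells 5 of the 18 were higher and 0 lower, beside 12.5% and 1.74% of all genes. TMM scaling gave 2 higher and 1 lower of those it compared.

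Cells with UMIs of at least 2 of 11 cycle genes after thinning were 12 of 381 in cluster 4, or 3.15% (1.64 to 5.44). The shares were 9.17% in cluster 2 (7.12 to 11.6), 5.35% in cluster 1 (3.93 to 7.09), 6.29% in cluster 3 (4.28 to 8.86) and 0.561% in homozygous alpha cells (0.242 to 1.10). In homozygous beta cells 0 of 424 cells passed, which allows up to 0.708%. The interval of cluster 4 lay below that of cluster 2 and above that of homozygous alpha cells, and overlapped those of clusters 1 and 3. Cenpf, highest in cluster 4, is among the 11 genes, with 411 UMIs in cluster 4 against 34 of Top2a. The part of Cenpf in these shares was not tested. Without thinning the shares were 14.0% in cluster 4, 17.2% in cluster 2, 10.4% in cluster 1, 12.2% in cluster 3 and 0.918% in homozygous alpha cells, so the place of cluster 4 against clusters 1 and 3 turned with thinning. With 3 or more genes required, the thinned share was 1.05% in cluster 4, 7.42% in cluster 2 and 0.491% in homozygous alpha cells, and the intervals of cluster 4 and homozygous alpha cells then overlapped. The part of free RNA from dividing cluster 2 cells in these shares was not tested.

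**Figure D4:**
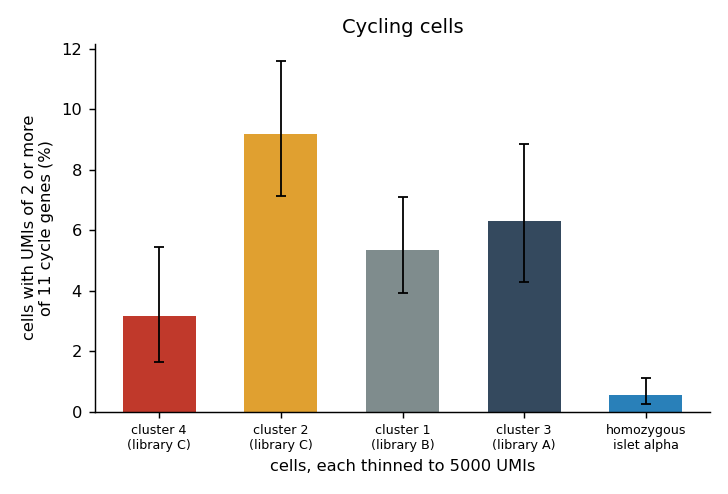
Percent of cells with UMIs of 2 or more of 11 cell cycle genes after thinning each cell to 5000 UMIs, in cluster 4, cluster 2, cluster 1, cluster 3 and homozygous islet alpha cells, with exact 95% binomial intervals as bars. Cluster 4 (3.15%) lies between homozygous alpha cells (0.561%) and cluster 2 (9.17%). Cenpf is among the 11 genes, and its part in the shares was not tested.

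The regulators of G1 entry differed in kind rather than together. Of 10 G1 cyclins, kinases and inhibitors in the list, 1 was higher in cluster 4 than in cluster 2 (Ccnd1) and 3 were lower (2 with TMM scaling), against 2.32% and 3.75% of all genes. The tumor suppressor Cdkn2a, whose products hold back Cdk4 and Mdm2, stood at 34.4 CPM in cluster 4, 275 in cluster 2, 23.2 in cluster 1, 55.2 in cluster 3 and 25.6 in homozygous alpha cells. Cluster 2, with high Cdk4 and Mdm2, thus also had the highest Cdkn2a and the lowest Ccnd1, and cluster 4 was on the side of the other profiles for all 4 genes. Of 11 p53 targets 1 was higher in cluster 4 than in cluster 2 and 0 lower, against the same shares of all genes, and the growth-arrest gene Cdkn1a was at 168 CPM in cluster 4 and 154 in cluster 2.

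Immune response genes differed in kind. Of 14 interferon response genes 5 were 2-fold lower in cluster 4 than in cluster 2 (4 with TMM scaling) and 0 higher, and of 13 NF-kB feedback genes 4 were lower and 0 higher, against 3.75% and 2.32% of all genes. Of 12 antigen presentation genes 1 was higher and 2 lower, or 2 and 2 with TMM scaling. B2m, the light chain of class I antigen-presenting molecules, stood at 586 CPM in cluster 4, 2160 in cluster 2, 242 in cluster 1, 769 in cluster 3 and 107 in homozygous alpha cells. Class II genes went the other way, with H2-Aa at 66.2 CPM in cluster 4, 26.3 in cluster 2, 3.99 in cluster 1, 14.0 in cluster 3 and 9.30 in homozygous alpha cells. Class II molecules are borne by macrophages, and 4 of 6 macrophage markers compared were also 2-fold higher in cluster 4. The 7 macrophage markers summed to 231 CPM in cluster 4, 96.8 in cluster 2, 34.3 in cluster 1, 152 in cluster 3 and 48.7 in homozygous alpha cells, with none at 0 in cluster 4. The 7 T and NK cell markers summed to 53.6 CPM in cluster 4, 28.4 in cluster 2, 4.96 in cluster 1, 14.4 in cluster 3 and 4.69 in homozygous alpha cells. Their part in the levels of H2-Aa, Cd2 or Ccl5 was not tested.

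Against homozygous alpha cells cluster 4 differed far more widely. By 2-fold, 1268 genes were higher in cluster 4 (12.5% of genes) and 176 lower (1.74%), around a median of 0.36 over all genes. The excess moved with the scaling, and hormones took 45.6% of UMIs in cluster 4 and 56.5% in homozygous alpha cells. TMM scaling moved the median by -0.41 and gave 544 higher and 413 lower, and totals without hormones gave 956 higher and 470 lower. The other tumor clusters stood in the same range against homozygous alpha cells, with 2110 genes higher and 246 lower in cluster 2 (20.9% and 2.43%), 1149 and 229 in cluster 1 (11.4% and 2.27%) and 1433 and 188 in cluster 3 (14.2% and 1.86%). These 4 comparisons share their homozygous alpha cells. Cluster 4 against cluster 1 gave 435 genes higher and 285 lower (4.3% and 2.82%), and against cluster 3 it gave 387 higher and 456 lower (3.83% and 4.51%). The 614, 720 and 843 genes in either direction against clusters 2, 1 and 3 were fewer than the 1444 against homozygous alpha cells. With TMM scaling the counts were 609, 716, 825 and 957. With homozygous alpha cluster 2.1 alone in place of all homozygous alpha cells, 994 genes were higher and 221 lower, or 1215 in either direction.

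A test over libraries was possible only for clusters 1, 2 and 3 together against the homozygous alpha cells, with 3 libraries against 1. By limma with Benjamini-Hochberg adjustment 7 genes were higher (0.0692% of genes) and 0 lower, with 1921 genes at an unadjusted p under 0.05. The quasi-likelihood test of edgeR called 0 in either direction, with 993 genes at an unadjusted p under 0.05. Leaving out 1 tumor library gave 0 higher genes without library A, 65 without library B and 13 without library C. The test holds no cluster 4 cell, and the counts of genes by size above have no replicate check.

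The pair of genes lowest in cluster 4 relative to homozygous alpha cells, among those with 50 CPM or more in either, encode hormones of other islet cells. Ppy, the gene of pancreatic polypeptide, stood at 900 CPM in cluster 4, 322 in cluster 2, 275 in cluster 1, 2360 in cluster 3 and 76625 in homozygous alpha cells. Pyy, the gene of peptide YY, stood at 2642 CPM in cluster 4, 709 in cluster 2, 10766 in cluster 1, 3364 in cluster 3 and 83482 in homozygous alpha cells. The levels in cluster 4 were 0.0117 (Ppy) and 0.0317 (Pyy) times those in homozygous alpha cells, and all 4 tumor profiles were far below them. The lowest homozygous alpha cell held 5312 CPM of Ppy, while the median cluster 4 cell held 158. In cluster 4 5 cells held 61.0% of the Ppy UMIs, and without them the level was 351 CPM. Homozygous islet beta cells held Ppy at 47360 CPM and endothelial cells at 10590, and the part of free Ppy RNA in the level of the alpha cells was not tested. The authors' homozygous alpha clusters 2.1 and 2.2 held Ppy at 28700 and 158900 CPM.

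Insulin transcripts set cluster 4 apart from all other tumor cells. Ins2 stood at 5654 CPM in cluster 4, 750 in cluster 2, 2.04 in cluster 1, 0.199 in cluster 3 and 6605 in homozygous alpha cells. Ins1 stood at 710 CPM in cluster 4, 230 in cluster 2, 20.7 in cluster 1, 0.697 in cluster 3 and 2405 in homozygous alpha cells. The ratio of cluster 4 to cluster 2 was 7.54 for Ins2 (7.38 to 7.71) and 3.08 for Ins1 (2.95 to 3.22). Both are hormone genes of beta cells, and every homozygous alpha cell held at least 2141 CPM of the pair, with a median of 8088. After thinning, Ins2 and Ppy each had a UMI in all 1427 homozygous alpha cells and all 424 homozygous beta cells. The part of free RNA in these levels of the homozygous alpha cells was not tested.

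Within cluster 4 the insulin transcripts were spread unevenly. The median cell held 1474 CPM of Ins1 and Ins2 together, the lowest 78.6 and the highest 136052, while the median cluster 2 cell held 574. A level as high as the lowest homozygous alpha cell was reached by 162 of 385 cluster 4 cells (42.1%, 37.1 to 47.2), 4 of 699 in cluster 2, 2 of 844 in cluster 1 and 0 of 493 in cluster 3 (which allows up to 0.609%). Above the 99th percentile of cluster 2 (1255 CPM) lay 213 of the 385 (55.3%). Without its 5 richest cells cluster 4 still held Ins2 at 4575 CPM, so the level did not rest on a few cells. Cluster 4 and cluster 2 share a library. The part of free insulin RNA in either, or in the homozygous alpha cells that set the cut, was not tested.

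**Figure D5:**
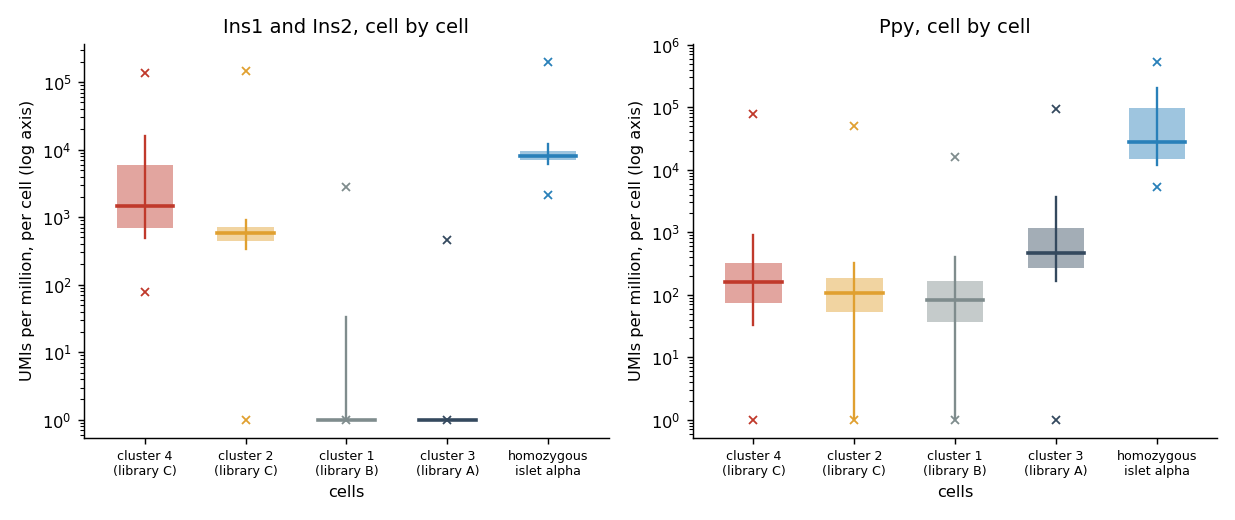
CPM of Ins1 and Ins2 together (left) and of Ppy (right) in each cell, on log axes with 0 drawn at 1, for cluster 4, cluster 2, cluster 1, cluster 3 and homozygous islet alpha cells. Lines are medians, boxes the 25th to 75th percentiles, bars the 10th to 90th percentiles and crosses the lowest and highest cell. Insulin in cluster 4 reaches from the range of cluster 2 into that of homozygous alpha cells, whereas Ppy does not follow. The part of free RNA in these values was not tested.

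The other genes of beta cells did not all go with insulin. Pcsk1, the convertase that beta cells use to process proinsulin, stood at 68.8 CPM in cluster 4, 14.1 in cluster 2, 0.487 in cluster 1, 0.498 in cluster 3 and 2.98 in homozygous alpha cells, and at 65.9 CPM in homozygous beta cells. After thinning 26.8% of cluster 4 cells had a Pcsk1 UMI, 6.11% of cluster 2 cells, 0.357% of cluster 1, 0.210% of cluster 3 and 1.12% of homozygous alpha cells. Iapp, the amylin gene, stood at 472 CPM in cluster 4, 191 in cluster 2, 60.3 in cluster 1, 2.69 in cluster 3 and 2467 in homozygous alpha cells. The beta cell factors Mafa, with no UMI, Pdx1, at 0.121 CPM, and Nkx6-1, at 0.243 CPM, were all but absent from cluster 4, and Nkx6-1 stood at 11.6 CPM in cluster 2. Of 6 beta markers compared 3 were higher and 1 lower in cluster 4 than in cluster 2, against 2.32% and 3.75% of all genes. Relative to homozygous alpha cells 0 were higher and 4 lower, against 12.5% and 1.74% of all genes. The somatostatin gene Sst, of delta cells, had 970 CPM in cluster 4 and 438 in cluster 2, but 5 cells held 78.7% of it in cluster 4, and the median cell held 212 CPM in cluster 4 and 211 in cluster 2.

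Stimulus-response genes were high against homozygous alpha cells. Of 20 immediate early genes 20 were 2-fold higher in cluster 4 and 0 lower, against 12.5% and 1.74% of all genes. Their median log2 ratio was 3.68, beside 0.36 over all genes, and with TMM scaling 17 were higher. Fosb, a subunit of the AP-1 factor, stood at 770 CPM in cluster 4, 435 in cluster 2, 498 in cluster 1, 626 in cluster 3 and 11.8 in homozygous alpha cells. Egr1, an early factor induced by growth signals, stood at 571 CPM in cluster 4, 245 in cluster 2, 267 in cluster 1, 472 in cluster 3 and 28 in homozygous alpha cells. The tumor profiles lay together and apart from the islet. In the other tumor clusters 18 (cluster 2), 19 (cluster 1) and 20 (cluster 3) of the same 20 were 2-fold above homozygous alpha cells. Of all genes 20.9%, 11.4% and 14.2% were. Within library C 5 of the 20 were higher in cluster 4 than in cluster 2 and 0 lower, against 2.32% and 3.75% of all genes. The 5 were Fosb, Egr1, Egr4, Atf3 and Nr4a1, of which Egr4 is a given marker of cluster 4. With TMM scaling 7 were higher and 0 lower. Immediate early genes are also known to respond to tissue dissociation, and tumor and islet handling cannot be told apart from tumor and islet origin.

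Of 13 NF-kB feedback genes 12 were 2-fold higher in cluster 4 than in homozygous alpha cells and 0 lower, with or without TMM scaling, against 12.5% and 1.74% of all genes. Nfkbia, the inhibitor of NF-kB that NF-kB itself induces, stood at 341 CPM in cluster 4, 445 in cluster 2, 264 in cluster 1, 264 in cluster 3 and 16.8 in homozygous alpha cells. Tnfaip3, another induced brake on this pathway, stood at 53.5 CPM in cluster 4, 52.1 in cluster 2, 42.8 in cluster 1, 29.4 in cluster 3 and 0.496 in homozygous alpha cells. Of 14 interferon response genes 10 were higher than in homozygous alpha cells (9 with TMM scaling), with 14 in cluster 2, 5 in cluster 1 and 13 in cluster 3, where 20.9%, 11.4% and 14.2% of all genes were higher. Of 12 antigen presentation genes 6 were higher (5 with TMM scaling), against 10 in cluster 2, 1 in cluster 1 and 4 in cluster 3.

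All 12 mitochondrially encoded genes compared were 2-fold higher in cluster 4 than in homozygous alpha cells, against 12.5% of all genes. With TMM scaling 10 were higher. The counts were 12 in cluster 2, 6 in cluster 1 and 10 in cluster 3, against 20.9%, 11.4% and 14.2% of all genes. Tumor and islet handling cannot be told apart from tumor and islet origin here either. ND4, a subunit of complex I, stood at 3184 CPM in cluster 4, 4246 in cluster 2, 2372 in cluster 1, 2771 in cluster 3 and 1222 in homozygous alpha cells. Between cluster 4 and cluster 2 0 of the 12 differed by 2-fold, where 2.32% of all genes were higher and 3.75% lower.

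Genes of amino acid uptake, the signal that drives alpha cells when the receptor is lost, mostly differed from the other tumor profiles by less than 2-fold. Of 13 amino acid transporters 1 was higher and 0 lower in cluster 4 than in cluster 2, 1 and 0 than in cluster 1, and 1 and 1 than in cluster 3. Of all genes 2.32% were higher and 3.75% lower than in cluster 2. The shares were 4.3% and 2.82% for cluster 1, and 3.83% and 4.51% for cluster 3. Slc38a5, the glutamine transporter gene that excess amino acids induce in alpha cells (chromosome X, 8271381 to 8280179), had 1358 CPM in cluster 4, 1780 in cluster 2, 1835 in cluster 1, 1145 in cluster 3 and 766 in homozygous alpha cells. Within the homozygous islet it stood at 1087 CPM in alpha cluster 2.1 and 195 in cluster 2.2. The cationic amino acid transporter gene Slc7a1 stood at 52.0 CPM in cluster 4, 25 in cluster 2, 16.0 in cluster 1, 22.1 in cluster 3 and 7.04 in homozygous alpha cells, and was 2-fold higher in cluster 4 than in each of them. Against homozygous alpha cells 6 of the 13 were higher and 0 lower, or 4 with TMM scaling, beside 12.5% and 1.74% of all genes. The counts higher in clusters 2, 1 and 3 were 9, 7 and 8, beside 20.9%, 11.4% and 14.2% of all genes.

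The cells of cluster 4 also varied in Slc38a5, with a median of 930 CPM per cell, a 10th percentile of 210 and some cells with none. Across its 385 cells Slc38a5 and Gcg had a Spearman rho of -0.31, against -0.00132 across 699 cluster 2 cells and 0.21 across 1525 homozygous alpha cells. Slc38a5 and Dapl1 had a rho of 0.18 in cluster 4, -0.02 in cluster 2 and 0.54 in homozygous alpha cells, and Slc38a5 and Ttr one of 0.09, -0.04 and 0.59. Cells of 1 profile share a library and differ in depth, so these are descriptions. Dapl1 and Ttr had a rho of 0.18 in cluster 4, 0.27 in cluster 2 and 0.52 in homozygous alpha cells. The joint variation of Slc38a5, Dapl1 and Ttr was thus weaker in cluster 4 than in homozygous alpha cells. The latter pool the authors' clusters 2.1 and 2.2, which differ in Slc38a5 and Dapl1, and no rho within either is given here.

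Among the 12 genes lowest in cluster 4 relative to homozygous alpha cells, with 50 CPM or more in either, Folr1, Cldn7 and Tspan8 ranked next after Ppy and Pyy. Folr1, a folate receptor gene, stood at 4.86 CPM in cluster 4, 50.9 in cluster 2, 4.65 in cluster 1, 89.5 in cluster 3 and 75.4 in homozygous alpha cells. The claudin gene Cldn7 stood at 5.71 CPM in cluster 4, 3.32 in cluster 2, 15.2 in cluster 1, 5.18 in cluster 3 and 75 in homozygous alpha cells. Tspan8, a tetraspanin gene, had 4.25 CPM in cluster 4, 3.77 in cluster 2, 24.6 in cluster 1, 48.4 in cluster 3 and 61.2 in homozygous alpha cells. Cluster 4 was near cluster 2 for Cldn7 and Tspan8, but not for Folr1. Other epithelial surface genes did not follow, with Epcam at 162 CPM in cluster 4 and 176 in homozygous alpha cells, and Cdh1, the gene of E-cadherin, at 42.3 CPM in cluster 4 and 19.4 in homozygous alpha cells.

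The tdTomato reporter was carried by all 5 profiles, and the labels used here do not say what drives it. It stood at 246 CPM in cluster 4, 1402 in cluster 2, 700 in cluster 1, 734 in cluster 3 and 385 in homozygous alpha cells. Cluster 4 had the lowest level, 0.176 times that of cluster 2 (0.168 to 0.184) and 0.639 times that of homozygous alpha cells. Thinned shares of cells with a tdTomato UMI were 71.1% in cluster 4, 80.3% in cluster 2, 69.1% in cluster 1, 75.5% in cluster 3 and 76.5% in homozygous alpha cells. In homozygous beta cells the share was 74.8%, within the range of the 5 alpha profiles.

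Marker genes of non-endocrine cells were low but not absent. The 8 acinar markers summed to 229 CPM in cluster 4, 168 in cluster 2, 1.95 in cluster 1, 14.4 in cluster 3 and 162 in homozygous alpha cells, with Amy2a5 at 0 in cluster 4. The 4 erythroid markers summed to 283 CPM in cluster 4, 288 in cluster 2, 3.59 in cluster 1, 25.2 in cluster 3 and 18.2 in homozygous alpha cells. For both lists cluster 4 and cluster 2 were alike and library C stood apart from libraries A and B. The 8 stellate markers summed to 27.6 CPM in cluster 4 and 32.8 in cluster 2, against 18.3 in homozygous alpha cells.

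Counted against all other profiles at once, the homozygous alpha cells stood furthest apart on the low side. In them 21 genes were 2-fold higher and 422 lower than in each of the 4 tumor profiles (0.208% and 4.17% of genes). The same counts were 37 and 21 for cluster 4, as above, 95 and 34 for cluster 2 (0.94% and 0.336%), 13 and 77 for cluster 1 (0.129% and 0.762%) and 48 and 54 for cluster 3 (0.475% and 0.534%). Cluster 4 had the fewest lower genes and fewer higher ones than clusters 2 and 3. The counts are not like measures. Clusters 4 and 2 are each counted against a profile of their own library, which the other profiles are not. The homozygous alpha cells are also the only islet profile. All of the counts use scaling by cell totals, and the hormone shares of the profiles differ as given above. No alpha cells from tissue beside the library C tumor were measured under that name, and whether cluster 4 came from such tissue was not tested.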

How the data were processed

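Per the file headers, the authors scaled UMIs within each cell to a fixed sum, so the deposited unit is a signal, while the totals of cells in the headers are counts. The submitters' processing notes name CASAVA 1.8, bcl2fastq 2.17, GSNAP 2013-10-10 and GRCm38. No header or label states how reads were assigned to genes.

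UMI numbers were regained by undoing that scaling, and 100% of values came out whole within 0.01. All cells passed 1000 UMIs, 500 genes and at most 20% mitochondrial UMIs. Scrublet (scanpy 1.11.5, expected rate 0.06) called 18, 9, 15 and 1 doublets in tumor libraries A, B, C and the homozygous islet library, and these were removed. Total UMIs were 10508500, 22893200, 22161200 and 34101600. Levels are summed UMIs per 1000000 with exact 95% Poisson intervals. Calls used log2 of the mean CPM over cells plus a pseudocount of 1, at 2-fold, for genes with 5 CPM in 2 profiles. Limma 3.58.1 and edgeR 4.0.16 ran in R 4.3.3 with an adjusted threshold of 0.05, and limma was tested on simulated data. Gene positions came from the annotation of GRCm38 for 31049 of 36529 gene rows.

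The design had foreseen limma within libraries for cluster 4, but its cells lay in 1 library, so ratios by size replaced the test. By rule the text names, in each direction, the 15 genes of largest ratio to cluster 2 and the 12 of largest ratio to homozygous alpha cells (50 CPM in 1 arm, predicted symbols left out), at most 4 members of a list, the given markers and Gcgr, Gcg, Slc38a5, Ins1, Ins2, Sst, Ppy, Pyy, Mdm2 and Cdk4. Other names were chosen after their values were seen. The cluster and the 36 gene lists were chosen with earlier results of these data known. Some genes that this rule names are not reported here.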

Additional observations from a re-analysis of the deposited data

How the results depend on the processing

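Of 543 ratios of named genes under other settings, 0 of those past 2-fold changed direction, and 261 of the 543 moved beyond their counting interval, among them 47 of 73 with TMM and 52 of 73 with a pseudocount of 5. Most of these genes were named for large ratios, so their direction says little. Counts of genes by size moved with the setting. A pseudocount of 5 CPM gave 123 genes higher and 218 lower in cluster 4 than in cluster 2, 268 and 134 against cluster 1, 244 and 245 against cluster 3, and 654 and 100 against homozygous alpha cells. Without a filter on low values there were 496 higher and 751 lower against cluster 2, 1027 and 498 against cluster 1, 827 and 822 against cluster 3, and 389 lower against homozygous alpha cells. Totals without hormones gave 465, 748 and 590 higher against clusters 2, 1 and 3, and 470 lower against homozygous alpha cells. TMM gave 544 higher and 413 lower against homozygous alpha cells. The share of cycling cluster 4 cells was 14.0% without thinning and 1.05% with 3 or more genes. For clusters 1 to 3 against homozygous alpha cells limma's 7 higher genes became 0 with a pseudocount of 5, no filter, TMM or edgeR, and 2 with summed UMIs. Leaving out 1 tumor library gave 0 to 65 higher and 0 to 3 lower (65 and 3 without library B, 13 and 2 without library C, 0 higher without library A). The cause was not tested.

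No paired analysis was possible because cluster 4 lay in 1 library and the labels pair no tumor library with the islet library. Leaving out library C would leave no cluster 4 cell, and comparing without cluster 2 would leave 2 cells in library C, so neither was run. Tests by edgeR and DESeq2 of cluster 4 against homozygous alpha cells were not run, with 1 library per arm. A count of 0 limits cluster 4 levels to 0.364 CPM, and genes near it have wide intervals.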
